A study of Homo sapiens with 18 samples.

Results

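The integrated stress response is described here through 10 genes, the transcription factors ATF4, ATF5, ATF3, DDIT3 (the gene for CHOP), CEBPB and CEBPG, the feedback genes TRIB3 and PPP1R15A (GADD34), the growth brake DDIT4 (REDD1) and the secreted factor gene INHBE. They were chosen by symbol from the 23411 gene symbols of the count tables, and all 10 were found. mRNA was sequenced from 18 samples of ARPE-19 cells, a human retinal pigment epithelium line that arose spontaneously in culture, with 3 samples in each of 6 groups. Control cells had received the vector for Cas9 but no gRNA, and their genotype is labelled as wild type. Both they and the NRF2 ΔC cells were given Milli-Q water (untreated), NACET at 1 mM or H2O2 at 0.2 mM. The NRF2 ΔC cells carried Cas9 with a gRNA that targets the last exon of the NRF2 gene, NFE2L2, and were 1 clone, so a difference between the lines belongs to this clone. NACET, N-acetylcysteine ethyl ester, is a precursor of cysteine that enters cells readily. The sample labels give 2 h of treatment after 22 h of culture in 1 % serum, and the text on the whole series gives 8 h after 40 h in 10 % serum. This difference could not be settled and the time of treatment stays uncertain, although the doses and groups are the same in both.

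In the integrated stress response, kinases that sense misfolded protein, missing amino acids, double-stranded RNA or missing heme phosphorylate the translation factor eIF2α. General translation falls while ATF4 mRNA, whose upstream reading frames normally keep it silent, is translated. ATF4 protein pairs with C/EBP factors and switches on genes for amino acid uptake and synthesis, tRNA charging and glutathione metabolism, and also the genes that end the response. Most of this control acts on translation and on protein, so mRNA counts show the transcription that follows and not the phosphorylation of eIF2α. In retinal pigment epithelium the response is known from studies of oxidative and endoplasmic reticulum stress.

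Each value is a count of reads per gene, here scaled to the size of its library with TMM factors (CPM, the usual unit of counts relative to the library total), and each fold change was fitted with edgeR. A gene was called when its adjusted p-value was under 0.05 and its log2 fold change was at least 0.6 in size. The reads on genes ranged from 16673306 to 25951154 per sample. The replicates may be technical, since neither the labels nor the text says whether they came from separate cultures, and p-values then measure only the spread between these samples. Equally numbered replicates of a cell line deviated from their group means together (correlations of 0.471 to 0.876), whereas between the cell lines the correlations ranged from -0.264 to 0.781. Fits with this number as a blocking factor are therefore given beside comparisons within a cell line where they change a call. Such a fit of 6 samples leaves little information on the spread of a single gene. Its p-values draw largely on the spread shared over all genes and can look far more certain than the samples warrant. NFE2L2 itself ranged from 102 to 152 CPM and was not called in any comparison of the groups, and KEAP1, the repressor of NRF2, ranged from 65.2 to 107 CPM and was not called either. Of 14 pigment epithelium markers, 9 had a median of at least 1 CPM, led by KRT8 (545 CPM), KRT18 (405 CPM), TJP1 (149 CPM) and OTX2 (132 CPM). The visual cycle gene RPE65 was near 0 with at most 0.0589 CPM, and RLBP1, BEST1, TYR and TTR also had medians under 1 CPM. The sum of the 6 neural retina markers was at most 7.67 CPM, while that of 6 mesenchymal genes was 5086 to 7644 CPM. Most of the latter sum was VIM (4185 to 6802 CPM), and COL1A2 in the same list was near 0 (at most 0.0482 CPM). In bulk samples, a change in RNA per cell cannot be told apart from a change in the share of responding cells.

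The stretches of DNA that ATF4 is known to bind with a C/EBP partner are shown first, because they separate 3 of the 10 genes from the others. Windows from 500 bases before to 100 bases after the transcription start site were read from the genome build of the counts, hg19, with start sites from GENCODE v44 lifted to that build. They were searched on both strands for TGATGNAA, the common core of C/EBP-ATF composite elements. ATF3, DDIT3 and INHBE held it, 3 of 10, whereas 5.25 % of the windows of 20105 protein-coding genes did. In the lines that follow, each stretch is given 5′ to 3′ on the strand of its gene, with the match in capitals, and a match read as TTGCATCA is the same element on the other strand.
ATF3, chr1:212781880-212781927, plus strand, 203 bases before the start: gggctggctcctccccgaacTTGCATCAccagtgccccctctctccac
ATF3, chr1:212782062-212782109, plus strand, 21 bases before the start: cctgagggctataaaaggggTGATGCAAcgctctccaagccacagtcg
DDIT3, chr12:57914576-57914623, minus strand, 306 bases before the start: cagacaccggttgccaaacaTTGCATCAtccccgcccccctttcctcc
INHBE, chr12:57848840-57848887, plus strand, 230 bases before the start: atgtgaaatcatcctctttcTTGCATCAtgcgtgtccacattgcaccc
All 4 matches read TGATGCAA on one of the strands. A first search with the longer TGATGNAAT in RefSeq promoters of GRCh38.p14, from 250 bases before to 50 bases after the start, found 0 of the 9 genes listed there against 0.991 % of 35116 promoters, and the shorter motif and the wider window were chosen after that result. PPP1R15A held the cyclic AMP response element TGACGTCA, which CREB and ATF factors bind, and 3.21 % of all windows did.
PPP1R15A, chr19:49375600-49375647, plus strand, 58 bases before the start: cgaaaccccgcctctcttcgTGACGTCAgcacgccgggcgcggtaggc
The core of the antioxidant response element that NRF2 binds, TGACNNNGC, is a loose motif present in 23.3 % of all windows. CEBPB, DDIT4, PPP1R15A and INHBE held it, 4 of 10, and the match in CEBPB lies 57 bases before the start.
CEBPB, chr20:48807290-48807338, plus strand: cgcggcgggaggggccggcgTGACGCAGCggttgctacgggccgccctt
These matches describe the letters of the windows and are not measured binding.

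In untreated control cells the members covered a wide range of levels. Per kilobase of the main transcript, ATF4 stood at 142 and DDIT4 at 128 CPM, followed by PPP1R15A at 49.1, DDIT3 at 30.2, CEBPB at 22.6, ATF5 at 12.0, ATF3 at 7.63, TRIB3 at 7.50, CEBPG at 5.79 and INHBE at 0.150 CPM per kilobase (means, n = 3). The ranges of the 3 samples overlapped between ATF4 and DDIT4, between DDIT3 and CEBPB and between ATF3 and TRIB3, so these neighbours were not ordered. All other neighbours in this order did not overlap. The counting took no account of strand, and 2 of the members share exons with an expressed gene on the opposite strand. ATF5 shares 565 of its 2892 exon bases with NUP62, a nuclear pore gene, and DDIT3 shares 355 of 1307 with MARS, the methionyl-tRNA synthetase, so that reads lying only in these shared bases could not be given to either gene.

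**Figure D1:**
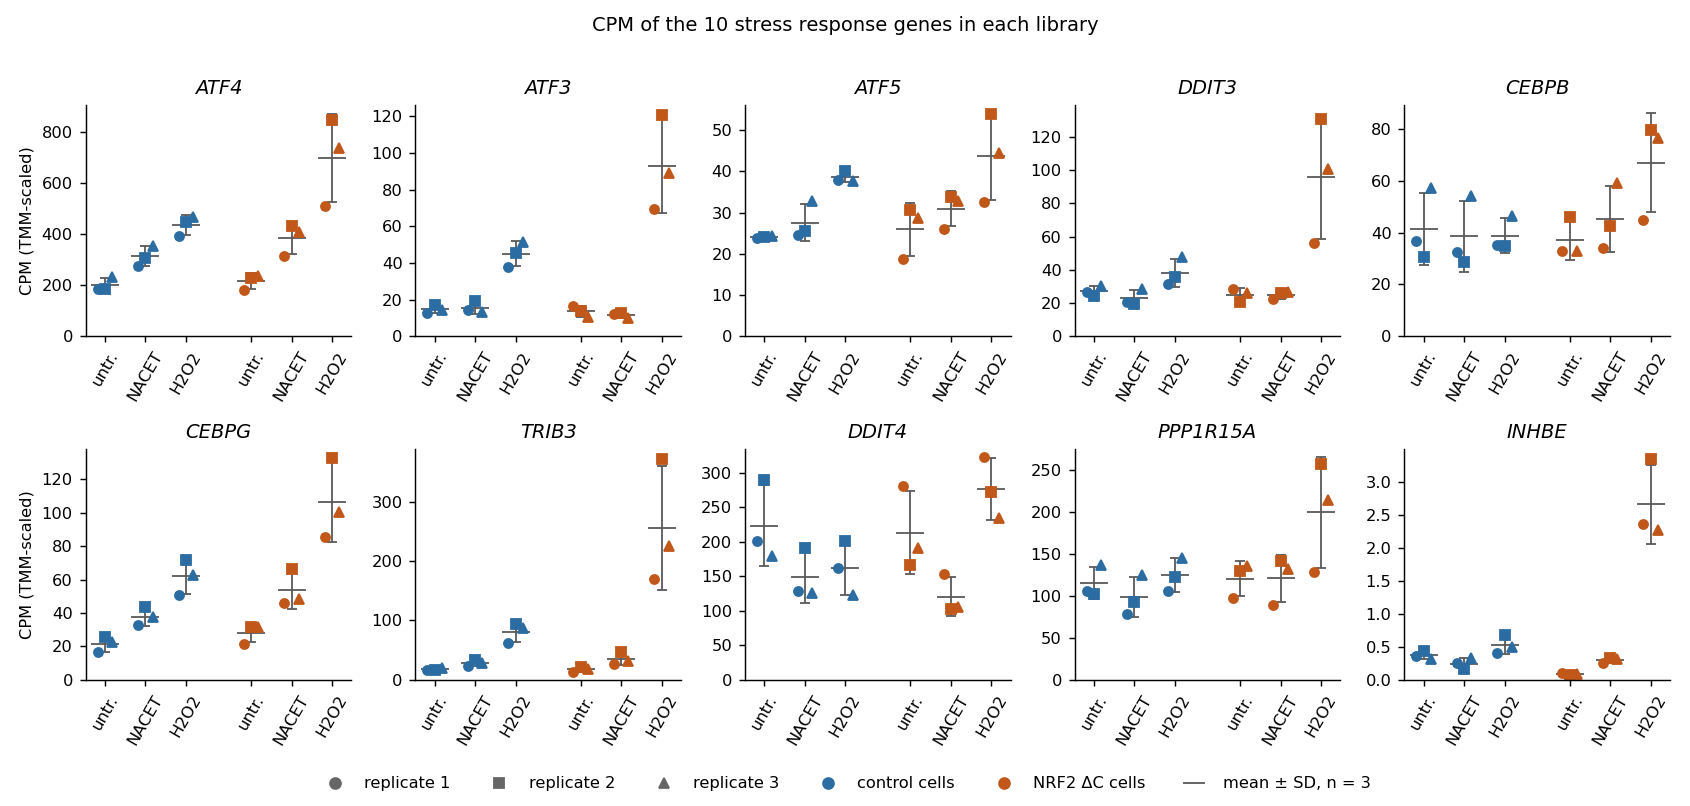
CPM (TMM-scaled, linear axes from 0) of the 10 genes in each of the 18 libraries, by group, with the mean and SD of 3 samples. The H2O2-treated NRF2 ΔC samples stand highest for ATF4, ATF3, DDIT3, CEBPG, TRIB3 and INHBE, while CEBPB and PPP1R15A overlap between most groups.

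H2O2 in control cells raised the factors ATF4, ATF5, ATF3 and CEBPG and the feedback gene TRIB3. These were 5 of the 9 members tested, against 6.33 % of all genes tested and 2.96 % called higher, and no member was called lower. All 5 were called in every alternative, with DESeq2, with the replicate block and without any 1 of the 6 samples. DDIT3 did not pass (log2 fold change 0.49, edgeR adjusted p = 0.0798), and CEBPB, PPP1R15A and DDIT4 lay between -0.47 and 0.12. INHBE had too few reads to be tested there.

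In NRF2 ΔC cells the rise with H2O2 reached 6 of 10 members, ATF4, ATF3, DDIT3, CEBPG, TRIB3 and INHBE, against 9.81 % of all genes tested and 4.26 % called higher. INHBE passed the filter on low counts there only through the H2O2-treated group, so its call was bound up with being tested at all. ATF5 (0.72), CEBPB (0.82) and PPP1R15A (0.71) had positive log2 fold changes that missed the threshold, with edgeR adjusted p = 0.0816, 0.0589 and 0.0986. When the replicate number was blocked, these 3 were called as well, which made 9 members against 18.7 % of all genes, and without H2O2 replicate 1 of the NRF2 ΔC cells 9 were called too, against 18.8 %. DDIT4 was the only member not called in either fit (0.35).

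**Figure D2:**
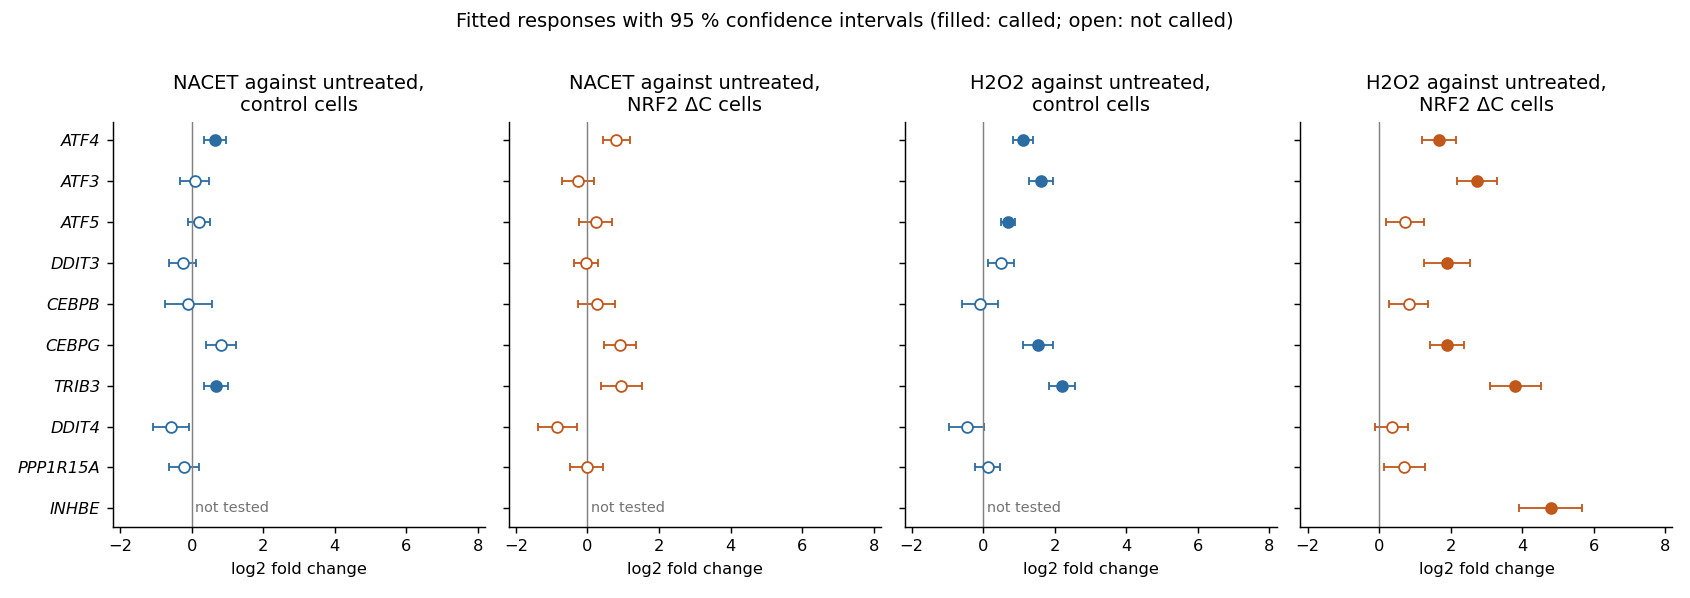
Log2 fold changes fitted by edgeR for the 10 genes in the 4 comparisons of a treatment with untreated cells, with 95 % confidence intervals (filled points are called, open points are not). H2O2 gives intervals above 0 for ATF4, ATF3, ATF5, DDIT3, CEBPG and TRIB3 in both cell lines, and with NACET the intervals of ATF4, CEBPG and TRIB3 lie above 0 and that of DDIT4 below 0 in both.

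Fewer members were called with NACET than with H2O2 in both lines. In control cells ATF4 (log2 fold change 0.65) and TRIB3 (0.68) were called higher, 2 of 9 members tested against 2.75 % of all genes tested and 1.39 % called higher. CEBPG had the largest value, 0.82, and missed the threshold narrowly (edgeR adjusted p = 0.0503). It was called with the replicate block (0.83, edgeR adjusted p = 9.28e-22), a p-value under the limit given above for blocked fits. These calls were fragile when a sample was left out. ATF4 stayed called only without untreated replicate 3 (edgeR adjusted p = 0.0442), and was lost without untreated replicate 1 (0.59) or 2 (0.59) or NACET replicate 1 (0.72), 2 (0.66) or 3 (0.55), and TRIB3 was lost in all 6 of these fits (log2 fold changes of 0.55 to 0.81, edgeR adjusted p = 0.0581 to 0.204).

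NACET in NRF2 ΔC cells gave no called member by edgeR, against 1.39 % of all genes tested, although 4 had an unadjusted p-value under 0.05. These were ATF4 (0.81, edgeR adjusted p = 0.0522), CEBPG (0.91, 0.0654), TRIB3 (0.94, 0.0992) and DDIT4 (-0.84, 0.114). DESeq2 called these 4, the block called the same 4 against 8.82 % of all genes, and so did the fit without NACET replicate 1. The blocked log2 fold changes were 0.81, 0.91, 0.94 and -0.83, with edgeR adjusted p-values of 1.25e-07 for ATF4 and 1.38e-07 for DDIT4. None of the 9 members tested was called for a difference between the cell lines in the response to NACET by the interaction (0 by edgeR and by DESeq2, 0 with an unadjusted p-value under 0.05), against 0.0643 % of all genes tested, with differences from -0.36 to 0.34 on the log2 scale. The interval of this difference for ATF4 ran from -0.63 to 0.30. INHBE was not tested, and its ratio of NACET to untreated was 0.687 in control cells (exact 95 % interval 0.341 to 1.35) and 3.36 in NRF2 ΔC cells (1.29 to 10.3), from pooled counts of 3 to 9 and of 2 to 7 reads per sample. Both intervals hold counting error only and leave out the spread between replicates, so they are no test of the treatment or of the lines.

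ATF4, the factor at the centre of the response, was at 185, 187 and 233 CPM in the 3 untreated control samples, at 277, 308 and 355 CPM with NACET and at 392, 449 and 468 CPM with H2O2. The 3 groups did not overlap and stood in this order in every replicate number. NRF2 ΔC cells held 181, 229 and 237 CPM untreated, 315, 430 and 408 CPM with NACET and 510, 847 and 737 CPM with H2O2. Here too the groups did not overlap. H2O2 raised it by a log2 fold change of 1.12 in control cells (SE 0.12, edgeR adjusted p = 0.00259) and of 1.67 in NRF2 ΔC cells (SE 0.21, edgeR adjusted p = 0.00386).

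CEBPG, a C/EBP factor that pairs with ATF4, had the same order of groups as ATF4. It was at 16.4, 25.5 and 22.9 CPM in untreated control cells, at 32.7, 43.7 and 37.3 CPM with NACET and at 51.0, 71.9 and 63.0 CPM with H2O2, with no overlap between the groups. The NRF2 ΔC samples held 21.7, 31.4 and 31.4 CPM untreated, 45.9, 66.3 and 48.6 CPM with NACET and 85.8, 133 and 100 CPM with H2O2. Replicate 1 was the lowest of the 3 samples in all 6 groups. The log2 fold change with H2O2 was 1.53 in control (SE 0.18, edgeR adjusted p = 0.00326) and 1.89 in NRF2 ΔC cells (SE 0.21, edgeR adjusted p = 0.00270).

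CEBPB, another C/EBP partner of ATF4 that also serves in inflammation, did not follow this order. It was at 36.9, 30.6 and 57.1 CPM in untreated control cells, at 32.6, 28.8 and 54.1 CPM with NACET and at 35.1, 34.9 and 46.5 CPM with H2O2. Replicate 3 was the highest in each of these groups, and the treatments overlapped. In H2O2-treated NRF2 ΔC cells it was at 45.0, 79.4 and 76.5 CPM against 32.9, 46.2 and 32.8 CPM untreated, a log2 fold change of 0.82 (SE 0.24, edgeR adjusted p = 0.0589), and it was higher in all 3 pairs of the same number. With the block it was called (0.80, edgeR adjusted p = 3.10e-09).

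ATF5, a relative of ATF4 with the same kind of translational control, rose with H2O2 in control cells from 23.7, 24.1 and 24.4 to 37.9, 40.0 and 37.7 CPM. These samples were close to each other and the groups lay far apart relative to their spread (log2 fold change 0.68, SE 0.09, edgeR adjusted p = 0.00403). The NRF2 ΔC samples spread more, from 18.6, 30.6 and 28.6 to 32.6, 53.8 and 44.5 CPM (0.72, SE 0.24), and it was called with the block (0.73, edgeR adjusted p = 8.34e-08). With NACET the log2 fold changes of 0.21 (control) and 0.23 (NRF2 ΔC) were not called.

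ATF3, an early stress factor that represses or activates its targets, was called with H2O2 and not with NACET. In control cells it was at 12.9, 17.0 and 14.5 CPM untreated, at 14.4, 19.2 and 13.2 CPM with NACET and at 38.0, 45.3 and 51.5 CPM with H2O2. The NRF2 ΔC samples were at 16.7, 13.8 and 10.7 CPM untreated, at 12.3, 12.6 and 9.96 CPM with NACET and at 69.5, 120 and 89.1 CPM with H2O2. The H2O2 samples stood above all others, and those of NRF2 ΔC cells above those of control cells. The log2 fold change with H2O2 was 1.61 (SE 0.15, edgeR adjusted p = 0.00128) in control and 2.74 (SE 0.25, edgeR adjusted p = 0.00123) in NRF2 ΔC cells, whereas NACET gave 0.08 and -0.26.

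DDIT3 encodes CHOP, the factor that links a prolonged response to cell death. It was at 26.9, 24.3 and 30.5 CPM in untreated and at 31.3, 35.9 and 47.6 CPM in H2O2-treated control cells, and at 28.3, 20.9 and 26.4 CPM in untreated and at 56.4, 131 and 100 CPM in H2O2-treated NRF2 ΔC cells. The increase passed the threshold in NRF2 ΔC cells (1.91, SE 0.29, edgeR adjusted p = 0.00649) and not in control cells. Among the NRF2 ΔC samples with H2O2, replicate 1 was the lowest for DDIT3 as for ATF4, ATF3, CEBPG and TRIB3. With NACET it was at 20.7, 19.4 and 28.3 CPM in control and 22.4, 25.9 and 26.4 CPM in NRF2 ΔC cells, close to the untreated samples. MARS, which shares exon bases with it, is an ATF4 target too and stood at 103 ± 6.11 CPM in untreated and 268 ± 31.8 CPM in H2O2-treated control cells (SD, n = 3), and its part in the DDIT3 counts was not tested.

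TRIB3, a pseudokinase that binds ATF4 and CHOP and restrains them, had the widest response among the members that were well measured in every group. It was at 17.1, 16.7 and 19.2 CPM in untreated control cells, at 23.1, 33.4 and 28.0 CPM with NACET and at 61.2, 93.3 and 87.8 CPM with H2O2. For NRF2 ΔC cells the values were 13.3, 21.6 and 18.9 CPM untreated, 27.1, 47.6 and 30.8 CPM with NACET and 170, 372 and 226 CPM with H2O2. The 3 treatments did not overlap in either line. H2O2 raised it by a log2 fold change of 2.20 (SE 0.16, edgeR adjusted p = 0.000954) in control and of 3.81 (SE 0.32, edgeR adjusted p = 0.00118) in NRF2 ΔC cells.

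PPP1R15A encodes the subunit that brings protein phosphatase 1 to eIF2α and so ends the response, and it was not called in any treatment of control cells. There it was at 106, 103 and 137 CPM untreated, 78.4, 93.2 and 126 CPM with NACET and 106, 123 and 146 CPM with H2O2, with overlap between the groups. Its values in NRF2 ΔC cells went from 97.5, 130 and 135 to 128, 258 and 214 CPM with H2O2 (0.71, SE 0.25, edgeR adjusted p = 0.0986). The block called this rise (0.66, edgeR adjusted p = 3.80e-08).

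DDIT4, a brake on the growth kinase complex mTORC1, was the member that was lower after NACET in every pair of both lines. In control cells it was at 201, 290 and 180 CPM untreated, at 129, 191 and 125 CPM with NACET and at 162, 201 and 123 CPM with H2O2. The NRF2 ΔC cells stood at 282, 167 and 192 CPM untreated, at 153, 103 and 105 CPM with NACET and at 324, 272 and 234 CPM with H2O2. NACET was lower than untreated in all 6 pairs of the same number, by 0.52 to 0.64 on the log2 scale in control and by 0.70 to 0.88 in NRF2 ΔC cells. H2O2 was lower in all 3 pairs of control cells (-0.55 to -0.32) and higher in all 3 pairs of NRF2 ΔC cells (0.20 to 0.70), and neither change was called. In the blocked fit of NACET in control cells the log2 fold change of -0.58 stayed under the fold limit (edgeR adjusted p = 5.02e-19). The limit given above for p-values of blocked fits holds here as well.

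INHBE encodes the inhibin beta E chain, a secreted factor of the TGF-β family that is made mainly in the liver and known as a gene of this stress response. It was almost silent in these cells. The counts were 8, 9 and 7 reads in the untreated control samples, 5, 3 and 8 with NACET and 7, 16 and 10 with H2O2. The counts of NRF2 ΔC cells were 2, 2 and 2 reads untreated, 6, 6 and 7 with NACET and 46, 65 and 53 with H2O2, which is 2.36, 3.33 and 2.26 CPM. Only the H2O2-treated NRF2 ΔC samples lie above 0.682 CPM. The gene passed the filter on low counts only through that group, so that in the comparisons with it the call was bound up with being tested at all. Pooled over the 3 samples and scaled to the library sizes, the level was 29.8 times that of untreated NRF2 ΔC cells (164 against 6 reads, exact 95 % interval 13.4 to 82.3, counting error only), and 4.85 times that of H2O2-treated control cells (3.32 to 7.27). In control cells the ratio of H2O2 to untreated was 1.47 with an interval of 0.845 to 2.61, and no change was detectable at this depth. Untreated NRF2 ΔC cells had 0.240 times the level of untreated control cells (6 against 24 reads, 0.0801 to 0.602, counting error only), and the ratio of NACET to untreated was 3.36 (1.29 to 10.3) in NRF2 ΔC cells. All of these intervals hold counting error only and leave out the spread between replicates. The fitted log2 fold change with H2O2 in NRF2 ΔC cells was 4.79 (SE 0.39, edgeR adjusted p = 0.00105). INHBE also shares 499 of its 3046 exon bases with a long noncoding RNA on the opposite strand.

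The treatments were also set against each other. NACET-treated control cells had lower ATF3 (-1.51), CEBPG (-0.69) and TRIB3 (-1.50) than H2O2-treated ones, 3 of 9 members tested against 3.67 % of all genes and 1.43 % called lower. The block added DDIT3 (-0.73, edgeR adjusted p = 5.56e-06) and left ATF4 (-0.46) and ATF5 (-0.47) under the fold limit. The call of CEBPG was lost without H2O2 replicate 2 (-0.57) or 3 (-0.67) and without NACET replicate 1 (-0.60), 2 (-0.81) or 3 (-0.68), and ATF5 (-0.61) and DDIT3 (-0.91) were gained without NACET replicate 3. In NRF2 ΔC cells 7 of 10 were lower with NACET than with H2O2, against 8.31 % of all genes and 3.22 % called lower. These were ATF4 (-0.84), ATF3 (-2.98), DDIT3 (-1.92), CEBPG (-0.96), TRIB3 (-2.84), DDIT4 (-1.17) and INHBE (-3.10), and PPP1R15A (-0.67, edgeR adjusted p = 1.01e-07) joined them with the block. Here too INHBE was tested only through the H2O2-treated samples, in which it is high, so its call adds no separate evidence. All 10 were called without H2O2 replicate 1 (against 11.7 % of all genes), and 4 without H2O2 replicate 2 (1.87 %) or NACET replicate 3 (2.80 %), where ATF4 (-0.69 and -0.90), CEBPG (-0.78 and -0.92) and DDIT4 (-1.19 and -1.11) were lost. ATF4 was also lost without H2O2 replicate 3 (-0.80) or NACET replicate 1 (-0.72) or 2 (-0.95), CEBPG without H2O2 replicate 3 (edgeR adjusted p = 0.0637) or NACET replicate 1 (-0.87), and DDIT4 without NACET replicate 2 (-1.09).

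Between the untreated cell lines none of the 9 members tested was called (edgeR, 0 with an unadjusted p-value under 0.05, 0 by DESeq2) against 3.85 % of all genes, with log2 fold changes of NRF2 ΔC against control cells from -0.15 for CEBPB to 0.38 for CEBPG. For ATF4 the interval ran from -0.23 to 0.42. INHBE had too few reads to be tested here and after NACET, and its untreated samples did not overlap between the lines (0.0776 to 0.0975 CPM in NRF2 ΔC and 0.319 to 0.434 CPM in control cells). After NACET again 0 of 9 members were called by edgeR and by DESeq2, against 4.76 % of all genes, and 2 had an unadjusted p-value under 0.05, ATF3 (-0.45) and CEBPG (0.47).

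After H2O2, ATF3, DDIT3, CEBPG, TRIB3, DDIT4 and INHBE were higher in NRF2 ΔC than in control cells, 6 of 10 members against 5.62 % of all genes tested and 1.41 % called higher. The log2 fold changes were 1.03 for ATF3 (SE 0.20, edgeR adjusted p = 0.0177), 1.31 for DDIT3 (SE 0.28, 0.0273), 0.76 for CEBPG (SE 0.18, 0.0425), 1.64 for TRIB3 (SE 0.28, 0.00785), 0.76 for DDIT4 (SE 0.19, 0.0485) and 2.27 for INHBE (SE 0.31, 0.00287). ATF4 (0.66, edgeR adjusted p = 0.0722), CEBPB (0.77, 0.0802) and PPP1R15A (0.66, 0.137) missed the threshold, and ATF5 differed least (0.16). TRIB3 and INHBE were called whichever sample was left out. INHBE, however, passed the filter on low counts only through the H2O2-treated NRF2 ΔC samples, so its call was bound up with being tested. ATF3 and DDIT3 were lost without control replicate 1 (0.91 and 1.17) or 2 (1.01 and 1.24) and without NRF2 ΔC replicate 2 (0.81 and 1.03) or 3 (1.05 and 1.26). CEBPG and DDIT4 were lost in the same 4 fits (0.62 and 0.74, 0.86 and 0.92, 0.58 and 0.77, 0.79 and 0.86 in this order) and without control replicate 3 (0.75 and 0.57). Without NRF2 ΔC replicate 1, which was the lowest of the 3 H2O2-treated samples for 8 members but the highest for DDIT4 and the middle one for INHBE, 9 members were called against 17.6 % of all genes, ATF4 (0.85), CEBPB (0.99) and PPP1R15A (0.91) in addition.

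**Figure D3:**
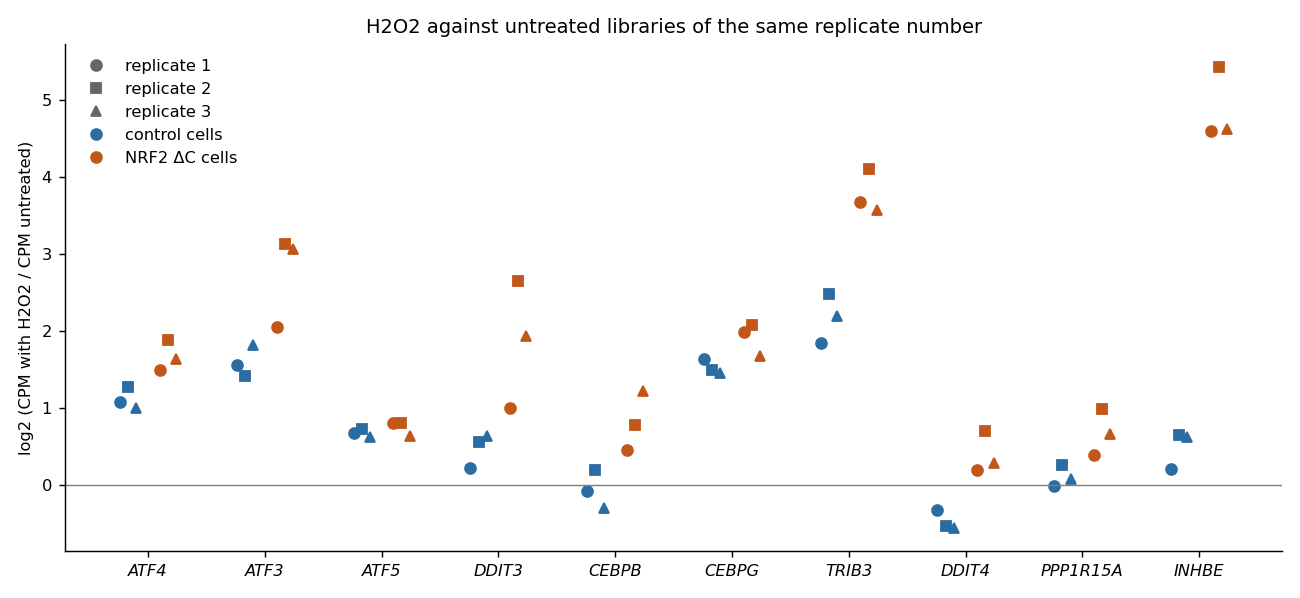
Log2 ratio of CPM with H2O2 to CPM untreated for the 10 genes, between equally numbered samples of each cell line (3 points each). The ratios of NRF2 ΔC cells lie above those of control cells for all genes but ATF5, whose ranges overlap, and DDIT4 lies below 0 in control and above 0 in NRF2 ΔC cells.

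Whether H2O2 acted differently in the lines was tested by the interaction over 12 samples, called on the adjusted p-value alone. The response of control cells minus that of NRF2 ΔC cells was negative for all 10 members, from -0.06 for ATF5 to -4.27 for INHBE. Only INHBE was called (SE 0.52, edgeR adjusted p = 0.0183), 1 of 10 members against 0.0214 % of all genes tested, with 0.00715 % called lower. INHBE passed the filter on low counts in this fit only through the H2O2-treated NRF2 ΔC samples, in which it is high. Its call was therefore bound up with being tested, and none of the other members was called. INHBE lost this call without control H2O2 replicate 1 (-4.15), NRF2 ΔC untreated replicate 2 (-4.18) or 3 (-4.31), or NRF2 ΔC H2O2 replicate 2 (-4.08) or 3 (-4.37). DDIT3 (-1.71) was called in addition without NRF2 ΔC H2O2 replicate 1. A total of 7 members had an unadjusted p-value under 0.05, TRIB3 (-1.63, edgeR adjusted p = 0.248), DDIT3 (-1.43, 0.321) and ATF3 (-1.15, 0.379) among them. Blocking the replicate number separately in each line, added after the data were seen, called 8 members against 6.91 % of all genes. These were ATF4 (-0.55, edgeR adjusted p = 0.00699), ATF3 (-1.14, 0.00350), DDIT3 (-1.38, 0.00389), CEBPB (-0.88, 0.00400), TRIB3 (-1.61, 1.28e-05), DDIT4 (-0.85, 0.000380), PPP1R15A (-0.56, 0.0137) and INHBE (-4.32, 0.000187), whereas CEBPG (-0.37, 0.0754) and ATF5 (-0.06, 0.788) were not called.

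The sensors and the machinery of eIF2 were looked at through lists. None of the 10 genes for eIF2α kinases and their activators was called by edgeR or DESeq2 in any comparison, and at most 1 had an unadjusted p-value under 0.05. Without H2O2 replicate 1 of the NRF2 ΔC cells, EIF2AK3 was called lower with H2O2 (-0.97), where 18.8 % of all genes were called in either direction. Against H2O2-treated control cells 2 of the 10 were then called lower, where 17.6 % of all genes were called. Neither count stands out from these shares. The kinases are EIF2AK1 (HRI), EIF2AK2 (PKR), EIF2AK3 (PERK) and EIF2AK4 (GCN2). Their log2 fold changes with H2O2 were -0.03, 0.27, -0.24 and 0.12 in control and -0.03, -0.02, -0.55 and -0.10 in NRF2 ΔC cells. Of the 16 genes for subunits of eIF2, eIF2B and the phosphatases and for related initiation factors, 1 was called with H2O2 in control cells and 3 in NRF2 ΔC cells, all higher, against 2.96 % and 4.26 % of all genes called higher. The share in control cells, 6.25 %, was near the 6.33 % of all genes called in either direction. With NACET 0 were called by edgeR and by DESeq2 in either line, and 1 had an unadjusted p-value under 0.05 in each. EIF2S2, the β subunit of eIF2, rose from 76.5 ± 14.0 to 124 ± 14.1 CPM in control cells (0.71, SE 0.15, edgeR adjusted p = 0.0203) and from 75.3 ± 11.1 to 159 ± 19.2 CPM in NRF2 ΔC cells (1.06, SE 0.16, edgeR adjusted p = 0.00649; SD, n = 3 each).

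The other known ATF4 targets, 39 genes of amino acid transport and synthesis, one-carbon metabolism, tRNA charging and stress signalling, were higher after H2O2. Control cells had 31 of the 38 tested called higher and 0 lower by edgeR and by DESeq2, with a median log2 fold change of 1.13 against a median of -0.00381 over all genes tested. The counts in NRF2 ΔC cells were 34 of 39 higher and 0 lower by both tools, with a median of 1.47 against -0.00864. Of all genes tested by edgeR with H2O2, 2.96 % were called higher and 3.37 % lower in control cells. In NRF2 ΔC cells these shares were 4.26 % and 5.55 %. SLC6A9, a glycine transporter, went from 1.35 ± 0.355 to 20.6 ± 6.35 CPM in control cells (3.93, SE 0.28, edgeR adjusted p = 0.000836) and CHAC1, which degrades glutathione, from 1.24 ± 0.463 to 15.9 ± 3.11 CPM (3.69). In NRF2 ΔC cells CHAC1 went from 1.47 ± 1.05 to 49.1 ± 16.0 CPM (4.99, SE 0.44, edgeR adjusted p = 0.00123) and CTH, which makes cysteine, from 2.65 ± 0.654 to 79.1 ± 20.0 CPM (4.86; SD, n = 3 each). With NACET 6 of 38 were called higher in control cells (median 0.36) and 2 of 39 higher and 1 lower in NRF2 ΔC cells (median 0.53), while 1.39 % of all genes were called higher in control cells and 0.458 % higher and 0.930 % lower in NRF2 ΔC cells. DESeq2 called 11 and 15 of the list higher, where it called 4.37 % and 4.32 % of all genes in either direction, and the block called 10 and 18 higher, against 7.49 % and 8.82 %. SLC7A11, the cystine transporter, had the largest of these rises in control cells, 2.67 (SE 0.17, edgeR adjusted p = 0.00136), and is also a target of NRF2, and CTH rose by 0.99. In NRF2 ΔC cells ASNS, asparagine synthetase (1.38), and XPOT, a tRNA exporter (0.75), rose and STC2, a secreted glycoprotein, fell (-0.73). The list is not independent of the members, since its genes were chosen as targets of ATF4 with earlier results of these data known.

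**Figure D4:**
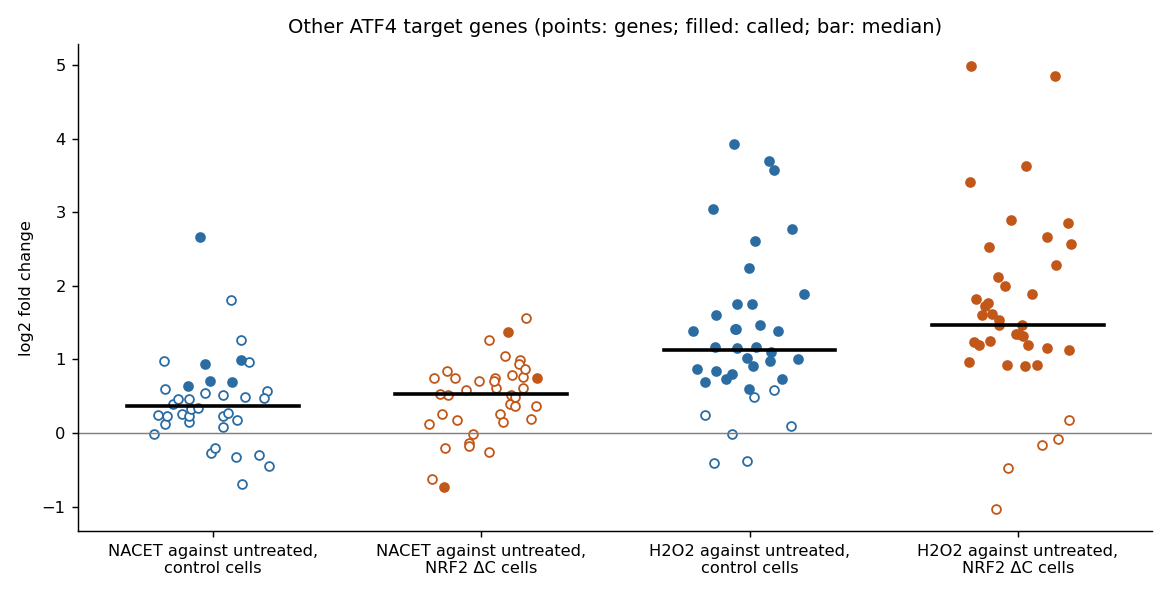
Log2 fold changes fitted by edgeR for the other ATF4 target genes in the 4 comparisons of a treatment with untreated cells (points are genes, spread sideways at random; filled points are called; the bar is the median). The medians with NACET are 0.36 (control) and 0.53 (NRF2 ΔC), and those with H2O2 are 1.13 (control) and 1.47 (NRF2 ΔC).

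Without treatment 1 of 38 of these targets was called higher and 2 lower in NRF2 ΔC than in control cells, against 0.729 % and 3.12 % of all genes, SLC6A9 (1.37) higher and SLC7A11 (-1.05) and SLC7A5, a transporter of large neutral amino acids (-0.86), lower. After H2O2, 6 of 38 were called higher and 1 lower, against 1.41 % and 4.20 % of all genes tested, with a median of 0.50. The count called, 7 in all, ranged from 2 without NRF2 ΔC replicate 3 to 24 without NRF2 ΔC replicate 1. SLC7A11 is the gene called lower after H2O2 and was named after its value was seen (-1.13).

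The genes of cell death and oxidation that are linked to CHOP were mixed. With H2O2, 4 of 10 were called higher in control and 5 of 10 in NRF2 ΔC cells, against 2.96 % and 4.26 % of all genes, among them BBC3 (PUMA; 0.78 and 1.53) and PMAIP1 (NOXA; 1.03 and 1.50), which encode death proteins that p53 induces as well. With NACET, PMAIP1 rose (1.04) in control cells while TXNIP, an inhibitor of thioredoxin (-1.23), and BBC3 (-0.95) fell, and in NRF2 ΔC cells 0 genes of this list were called by edgeR, where 5 had an unadjusted p-value under 0.05 and DESeq2 called 2 lower. BBC3 was at 22.3 ± 2.29 CPM untreated, 11.4 ± 1.83 CPM with NACET and 38.1 ± 7.12 CPM with H2O2 in control cells (SD, n = 3 each). Among the 13 secreted stress hormones other than INHBE, 8 were tested with H2O2. INHBA, a relative of INHBE (1.00), and STC2 (0.60) rose in control cells, and GDF15 (3.88) and FST, the binding protein of activins (2.00), were the largest of 4 rises in NRF2 ΔC cells, where ADM fell (-0.75). Of all genes, 2.96 % were called higher in control cells, and 4.26 % higher and 5.55 % lower in NRF2 ΔC cells. GDF15 was at 0.315 ± 0.192 CPM untreated and 4.88 ± 2.16 CPM with H2O2 in NRF2 ΔC cells (SD, n = 3 each). It passed the filter on low counts there only through the H2O2-treated group, so its call was bound up with being tested at all. ANGPTL4, an inhibitor of lipoprotein lipase, rose with NACET in both lines (1.80 and 2.14).

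Genes of the endoplasmic reticulum, which the ATF6 and IRE1 arms of the unfolded protein response control, were looked at as well. Of 20 genes, 0 were called higher and 1 lower with H2O2 in control cells (MANF, -0.62), a share of 5 % near the 3.37 % of all genes called lower. In NRF2 ΔC cells 4 were called higher with H2O2, against 4.26 % of all genes called higher there. With NACET 0 were called in control cells and 1 in NRF2 ΔC cells, where 2.75 % and 1.39 % of all genes were called. DESeq2 called 0 higher and 1 lower, 4 higher, 0 and 3 higher in these comparisons, and the genes with an unadjusted p-value under 0.05 in either direction numbered 5, 7, 4 and 9. The median log2 fold changes were -0.12, 0.22, 0.12 and 0.20. XBP1, the factor of the IRE1 arm, rose with H2O2 (1.34) and NACET (0.88) in NRF2 ΔC cells, and HERPUD1, which clears misfolded protein, rose with H2O2 there (0.87). After H2O2, 4 of these 20 genes were called higher in NRF2 ΔC than in control cells against 1.41 % of all genes, and 19 of the 20 had positive log2 fold changes (median 0.43). The 4 were HSPA5 (BiP; 0.89), HERPUD1 (0.78), CRELD2 (0.81) and XBP1 (1.01), of which HSPA5 and CRELD2 were named after their values were seen.

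Among 24 other genes listed with the CREB, ATF and C/EBP bZIP factors, 21 were tested. With H2O2, 2 (9.52 %) were called in control and 3 (14.3 %) in NRF2 ΔC cells, all higher. Of all genes, 6.33 % and 9.81 % were called there, and 2.96 % and 4.26 % higher. With NACET 14.3 % and 9.52 % of these genes were called, against 2.75 % and 1.39 % of all genes. CREM, a cyclic AMP responsive factor, rose with NACET in both lines (0.65 and 1.11) and ATF6B fell (-0.64 and -0.70), while JDP2, a partner and repressor of AP-1 factors, rose with H2O2 (0.69 and 1.20). CEBPA rose with H2O2 in NRF2 ΔC cells (1.23), where it was lower without treatment (-1.22 against control cells). CEBPZ, which has a C/EBP name but is not a bZIP factor, rose with H2O2 in control cells (0.67) and is in the count above. Of 11 other genes of the Tribbles family or of brakes on mTORC1, 9 were tested. With H2O2, 2 were called higher and 3 lower in control cells (55.6 %), against 6.33 % of all genes. In NRF2 ΔC cells 2 were called higher and 2 lower (44.4 %), against 9.81 % of all genes. SESN2 (1.75 and 2.89) and SESN1 (0.96 and 1.25), which restrain mTORC1 and of which SESN2 is an ATF4 target, rose with H2O2 in both lines. TRIB2 (-0.84) and GATSL3, a sensor of arginine (-0.83), were the largest of 3 falls in control cells, and DDIT4L (-1.19) and GATSL3 (-0.70) fell in NRF2 ΔC cells. With NACET edgeR called 0 genes of this list in either line, 5 and 4 had an unadjusted p-value under 0.05 in control and NRF2 ΔC cells, and DESeq2 called 0 and 1.

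Of the 54 calls named from these lists, 17 were made whichever sample was left out. These were SLC6A9, CHAC1, JDP2, CEBPZ, SESN1 and SESN2 with H2O2 and SLC7A11 with NACET in control cells, and EIF2S2, CHAC1, CTH, BBC3, GDF15, XBP1, JDP2, SESN1, SESN2 and DDIT4L with H2O2 in NRF2 ΔC cells, where for GDF15 the limit given above holds. The others kept their direction but were lost in at least 1 of these fits, and the samples whose removal cost all of them are given next. With H2O2 they were lost without H2O2 replicate 2 in control cells, and without H2O2 replicate 2 or untreated replicate 2 or 3 in NRF2 ΔC cells. With NACET they were lost without untreated or NACET replicate 1 or 2 in control cells (CTH without any of the 6 samples), and without untreated or NACET replicate 2 or 3 in NRF2 ΔC cells. Those between the untreated lines were all lost without untreated control replicate 2, and those of HSPA5, HERPUD1, CRELD2 and XBP1 after H2O2 without H2O2-treated control replicate 1, while that of SLC7A11 was lost without control replicate 2 or NRF2 ΔC replicate 3. Many were lost more widely. Among them, ADM, CEBPA and GATSL3 (H2O2) and STC2 and XBP1 (NACET) in NRF2 ΔC cells stayed called in only 1 of 6 fits. So did PMAIP1, TXNIP, ANGPTL4 and CREM with NACET in control cells. Few genes of any kind were called in the NACET fits of NRF2 ΔC cells without a replicate 2 or 3 (0 to 0.0146 % of all genes).

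The genes whose levels followed each member most closely over the 18 samples were found by Pearson's r of log2 (CPM + 0.5). The samples share treatments and clone, so a high r says chiefly that a gene had the same order of groups, and no test is attached. CEBPG was closest to YARS (r = 0.988) and GARS (0.982) and to MTHFD2 (0.982), and TRIB3 to SARS (0.985), ARHGEF2 (0.984) and TOR1A (0.982). ATF4 was closest to C10orf2 (0.989), NAT9 (0.979) and RCL1 (0.979), and ATF5 to BYSL (0.960), RRP12 (0.947) and UTP14A (0.944). ATF3 was closest to FAS (0.973), NINJ1 (0.963) and NUDT16 (0.960), and DDIT3 to CERS5 (0.976), DUSP11 (0.971) and BLCAP (0.967). INHBE was closest to MAP1LC3B2 (0.955), TRIM25 (0.939) and MAP1LC3B (0.938), and MAP1LC3B2 and MAP1LC3B are near-identical copies whose reads are hard to tell apart. PPP1R15A was closest to CSNK2B (0.980), the ribosomal pseudogene RPL19P12 (0.966) and AAMP (0.966), and CEBPB to EIF3F (0.929), ZNF581 (0.926) and ZNF579 (0.926). DDIT4 had the weakest likeness, with CEP250 (0.878), NEU1 (0.847) and JARID2 (0.843). Among the members themselves r was 0.968 between ATF4 and CEBPG and 0.946 between ATF4 and TRIB3, but -0.03 between ATF4 and DDIT4.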

How the data were processed

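Poly(A) RNA libraries (TruSeq) were sequenced as single-end reads. The authors mapped them with TopHat2 2.1.0 and Bowtie to hg19, counted reads per gene without strand with HTSeq 0.11.2 and removed ribosomal RNA genes, and deposited whole-number counts per symbol, which were not normalized. The annotation is not given in the sources used here. The 5 summary lines per sample, which name no gene, were left out, and 72.1 to 74.2 % of the reads were on genes. Counts were tested in R 4.3.3 with edgeR 4.0.16 (filterByExpr, TMM, quasi-likelihood test, Benjamini-Hochberg adjustment), in fits of the 6 samples of 2 groups or of 12 samples for interactions. Reads that lie in several genes or map to several places were not counted, which lowers overlapping genes.

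Members and gene lists were chosen with earlier results of these data known. Named were the members, NFE2L2, KEAP1, the eIF2α kinases, from each other list up to 2 called genes with the largest rise and 2 with the largest fall per treatment comparison and between the untreated lines (at least 1 CPM on average), and the 3 genes most like each member. Alternatives were DESeq2 1.42.0, RLE normalization, no filter, 1 joint fit of all 18 samples, a replicate block, no fold limit and each sample left out (for the lists, chosen after the data were seen). Labels give the replicate numbers; pairing was checked by the correlation of deviations from the group means over 11007 genes. The code of the fits was run on simulated counts with known changes. These had the same spread setting for every gene and no effect of the replicate number, so they cannot show how the fits behave with the spread of these samples. All replicate pairs differed by more than counting error (chi-square per degree of freedom at least 9.98).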

Additional observations from a re-analysis of the deposited data

Results flagged for a closer look

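INHBE was called for a difference between the cell lines in its response to H2O2, in a fit where it passed the filter on low counts only through the H2O2-treated NRF2 ΔC samples, in which it is high. The log2 fold change of control cells minus that of NRF2 ΔC cells was -4.27 (edgeR adjusted p = 0.0183 for the interaction, 12 samples), with 33 reads over the 3 H2O2-treated control samples and 164 over the 3 H2O2-treated NRF2 ΔC samples. The untreated NRF2 ΔC samples held 2 reads each, so the size of this difference rests on 6 reads, and the call was lost in 5 of the 12 fits with 1 sample left out.

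DDIT4 was lower with H2O2 than untreated in all 3 pairs of control samples and higher in all 3 pairs of NRF2 ΔC samples. The difference of the responses was -0.83 on the log2 scale and did not pass (edgeR adjusted p = 0.772), and it was called when the replicate number was blocked in each line (-0.85, edgeR adjusted p = 0.000380).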

How the results depend on the processing

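The 30 calls of members kept their direction in every fit, and scaling by RLE moved none of 60 group means of CPM by more than 1 SD. The 5 calls of H2O2 in control cells were kept throughout. For NACET in NRF2 ΔC cells the count of called members rose from 0 (1.39 % of all genes called) to 4 with DESeq2 (4.32 %) and 4 with the replicate block (8.82 %). It was 2 with no filter (1.47 %) and 3 with 1 fit of all 18 samples (4.53 %), and 0 to 4 with 1 sample left out (0 to 3.38 %). For NACET in control cells it was 0 to 1 then (0.223 to 2.43 % of all genes), and for NRF2 ΔC against control cells with H2O2 2 to 9 (2.91 to 17.6 %). For NACET against H2O2 in NRF2 ΔC cells it was 4 to 10 (1.87 to 11.7 %), and for the interaction of H2O2 and line 0 to 2 (0 to 0.0776 %). That interaction called 3 members with DESeq2 (0.589 % of all genes), 4 with the replicate block (1.18 %) and 8 with the block within each line (6.91 %). Between the untreated lines, 1 fit of all 18 samples called 1 member, INHBE (-1.99), against 4.99 % of all genes, where 0 were called. The blocks of the replicate number across the lines are described here only, since replicate 2 of the lines deviated apart (-0.264 in untreated cells); for H2O2 that block called 9 members against 11.2 % of all genes, and it changed no other call between the lines.

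The lists were refitted the same way, with alternatives chosen after the data were seen. With DESeq2, the ATF4 targets called were 12 of the list for NACET in control cells (4.37 % of all genes), 16 for NACET in NRF2 ΔC cells (4.32 %) and 15 between the H2O2-treated lines (7.1 %), where 6, 3 and 7 were called. No filter gave 5 and 12 for the latter comparisons (1.47 and 5.24 %), 1 fit of all samples 15 and 12 (4.53 and 7.83 %), and the block 11, 20 and 15 (7.49, 8.82 and 11.2 %). With DESeq2, 1 fit and the block in turn, NACET in NRF2 ΔC cells called 2, 1 and 3 genes linked to CHOP and 3, 3 and 4 of the endoplasmic reticulum. In the same order it called 1, 1 and 1 of the Tribbles and mTORC1 brake genes, and H2O2 in control cells called 4, 0 and 5 secreted hormones. The block also gave 5 genes of the bZIP list for either treatment of NRF2 ΔC cells. For NACET in control cells it gave 3 hormones and 1 of the Tribbles and mTORC1 brake genes, where 1 fit gave 1 gene linked to CHOP. With 1 sample left out, the ATF4 targets called were 1 to 6 for NACET in control cells, 0 to 13 for NACET in NRF2 ΔC cells, 0 to 3 between the untreated and 2 to 24 between the H2O2-treated lines. The genes linked to CHOP ranged from 0 to 3 (NACET) and from 0 to 4 (H2O2) in control cells and from 2 to 7 (H2O2) in NRF2 ΔC cells. The hormones ranged from 0 to 1 (NACET) and from 0 to 3 (H2O2) in control cells, and in NRF2 ΔC cells from 0 to 2 (NACET) and from 1 to 5 (H2O2). The genes of the bZIP list were 0 to 2 with NACET in either line and 1 to 4 with H2O2 in NRF2 ΔC cells. The Tribbles and mTORC1 brake genes were 2 to 5 with H2O2 in control and 0 to 1 with NACET in NRF2 ΔC cells. The endoplasmic reticulum genes were 0 to 1 with H2O2 in control cells, 0 to 3 (NACET) and 1 to 4 (H2O2) in NRF2 ΔC cells and 0 to 5 between the H2O2-treated lines, the eIF2 subunits 0 to 2 and 1 to 3 with H2O2, and the kinases 0 to 1 with H2O2 in NRF2 ΔC cells. The share of all genes called moved as well when 1 sample was left out. In control cells it ran from 0.223 to 2.43 % (NACET) and from 2.09 to 7.57 % (H2O2). In NRF2 ΔC cells it ran from 0 to 3.38 % (NACET) and from 2 to 18.8 % (H2O2). The cause of these shifts was not tested.

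Of 103 values of members, 23 that were not called changed sign in some fit. With 1 sample left out, the ranges were for NACET in control cells -0.089 to 0.20 (ATF3) and -0.42 to 0.21 (CEBPB), for H2O2 in control cells -0.27 to 0.20 (CEBPB) and -0.011 to 0.26 (PPP1R15A), for NACET in NRF2 ΔC cells -0.15 to 0.072 (DDIT3) and -0.14 to 0.16 (PPP1R15A; 0.00036 in 1 fit of all 18 samples), and for NACET against H2O2 in control cells -0.32 to 0.17 (CEBPB; -0.0090 in that fit and -0.017 with the block) and -0.33 to 0.082 (DDIT4). Between the untreated lines they were -0.28 to 0.061 (ATF3), -0.025 to 0.29 (ATF5), -0.22 to 0.0079 (DDIT3), -0.34 to 0.16 (CEBPB), -0.13 to 0.19 (TRIB3), -0.33 to 0.17 (DDIT4) and -0.0081 to 0.22 (PPP1R15A), between the NACET-treated lines -0.011 to 0.29 (DDIT3) and -0.029 to 0.54 (CEBPB), and between the H2O2-treated lines -0.0072 to 0.33 (ATF5). For the interactions they were -0.16 to 0.16 (ATF5), -0.25 to 0.088 (CEBPG), -0.43 to 0.0083 (TRIB3) and -0.0048 to 0.49 (DDIT4) with NACET and -0.24 to 0.12 (ATF5) with H2O2. Of the kinases in H2O2-treated NRF2 ΔC cells, EIF2AK1 ranged from -0.063 to 0.012 and EIF2AK2 from -0.40 to 0.25 (0.0018 with no filter, 0.0083 in 1 fit). Depth limits only INHBE, with at most 16 reads outside the H2O2-treated NRF2 ΔC samples.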
